A study of Homo sapiens with 12 samples.

Results

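The transcriptome of 12Z cells that carried PIK3CA H1047R was compared with that of empty-vector cells while both were exposed to insulin. 12Z is an immortalized human endometriotic epithelial line, that is, cells from endometrium-like tissue growing outside the uterus. All cells had first received a pool of non-targeting siRNA and then, by transient transfection, a pBabe plasmid that was empty (control) or that encoded PIK3CA H1047R (H1047R). Serum was withdrawn for 4 h before 100 nM insulin was added for 24 h. Members were taken by label. They were the 3 H1047R insulin libraries and the 3 control insulin libraries, 6 of the 12 libraries of the series, and the other 6 had received vehicle (dilute saline with albumin) in place of insulin. The libraries of a group came from independent experiments according to the methods. The model has limits that bear on every value below. The cells were of 1 line, the mutant protein was expressed from a plasmid on top of the cells' own PIK3CA, the control was an empty vector and not wild-type PIK3CA, and transfected cells were not separated from untransfected ones. In bulk RNA of this kind, fewer cells of a type and less RNA per cell cannot be told apart.

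PIK3CA encodes p110α, the catalytic subunit that turns the membrane lipid PIP2 into PIP3 when the insulin receptor and its IRS adaptors recruit the kinase. PIP3 brings AKT to the membrane, and AKT restrains FOXO factors and activates mTORC1, which drives translation, glycolysis and lipid synthesis. H1047R is a kinase-domain substitution that raises lipid kinase activity and is found in normal endometrium as well as in endometrial cancer. Interferons, by contrast, signal through JAK kinases and STAT factors to a large set of antiviral genes, among them RSAD2, which encodes viperin, a radical SAM enzyme that makes a chain-terminating nucleotide.

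Read depth and library composition differed between the groups. Gene counts per library were 26608337 to 29255708 in control insulin and 30071951 to 37918025 in H1047R insulin. They were 21483124 to 28386143 in control vehicle and 23766993 to 25872417 in H1047R vehicle. Reads placed at several sites made up 13.6 to 15.4% of the reads in control insulin and 8.48 to 9.51% in H1047R insulin, a gap for which the exact permutation p was 0.1, the smallest that 3 against 3 libraries allow. These reads are not in the gene counts, and their part in the results below was not tested. With every library thinned to the smallest total, 4857 genes were called (2370 higher, 2487 lower), with 57 interferon-stimulated genes higher and 70 ribosomal protein genes lower as at full depth. Of the 14 epithelial markers tested, KRT18 was at 839, 903 and 939.6 CPM (read counts scaled to the library total) in control insulin, while CDH1 (2.17, 1.31 and 2.08 CPM) and EPCAM (1.06, 0.722 and 0.834 CPM) were close to zero. GRHL2, also on the list, averaged under 1 count per library and was not tested. PAX8, a transcription factor of the Müllerian epithelium, was at 5.62, 4.74 and 4.55 CPM. Summed over each whole list, epithelial markers were at 2925 to 3198 CPM in control insulin and 3291 to 3309 CPM in H1047R insulin, with 3 of 14 called higher (KRT17, KRT18 and PAX8), of which PAX8 was not called without replicate 1 or 2 of H1047R insulin or replicate 2 or 3 of control insulin. Stromal markers were at 11120 to 11650 and 9141 to 9525 CPM, with 3 of 19 called higher and 7 lower, among the latter collagen genes described below. Leukocyte markers summed to 6.70 to 7.01 CPM in control insulin and 5.13 to 5.72 CPM in H1047R insulin, with 1 of 10 called higher and none lower. Endothelial markers summed to 6.56 to 7.93 and 9.79 to 11.3 CPM, with 2 of 8 called higher and none lower. The groups did not overlap in any of these 4 sums, and their part in the results was not tested. For comparison with the marker counts, 11.4% of all genes tested were called higher and 12% lower. Among protein-coding genes the shares were 16.27% and 17.22%. PTPRC, which defines leukocytes, was at 1.36, 1.17 and 0.796 CPM in control insulin and 0.425, 0.825 and 0.778 CPM in H1047R insulin.

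H1047R changed the expression of many genes in the presence of insulin. Of 22756 genes tested, 5340 (23.5%) passed the edgeR quasi-likelihood test with a false discovery rate (FDR) under 0.001 and are termed called. Of these, 2605 (11.4%) were higher and 2735 (12%) lower in H1047R insulin than in control insulin. These shares cover all genes tested, among them 4754 long noncoding RNAs, of which 2.61% were called higher and 2.42% lower. For lists of protein-coding genes the closer background is 16.27% higher and 17.22% lower, the shares among protein-coding genes. Of the 11984 protein-coding genes averaging at least 1 CPM, 2308 were called higher and 2524 lower, which are larger shares still. A list of expressed genes is therefore expected to exceed the shares of all genes tested. The changes were larger upward than downward. The median log2 fold change of the called genes was 0.49 for those higher and -0.38 for those lower, against -0.022 over all genes tested. A change beyond 2-fold was found for 581 genes higher and 205 lower, and beyond 4-fold for 209 higher and 27 lower. The 3 libraries of each group did not overlap for 48.5% of all genes tested, and they did not overlap for 2604 of the 2605 genes called higher and 2733 of the 2735 called lower. Non-overlap of a called gene below therefore adds little to its call. It was also a condition for naming the genes with the largest changes. Levels below are CPM scaled by TMM factors, listed in the order of replicates 1 to 3, and differences are log2 fold changes ± SE of H1047R insulin over control insulin. Adjusted p-values are Benjamini-Hochberg values over all genes tested.

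**Figure D1:**
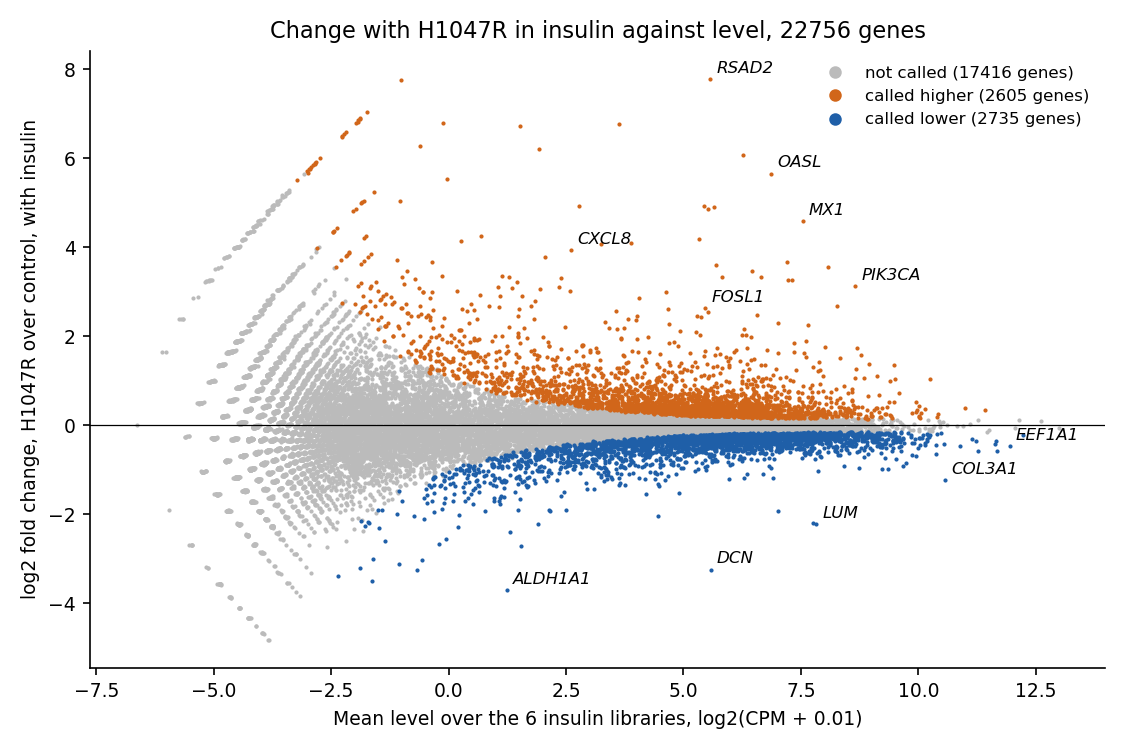
Each point is 1 of the 22756 genes tested, by its mean level over the 6 insulin libraries (horizontal axis, log2 of CPM plus 0.01) and its log2 fold change, H1047R insulin over control insulin (vertical axis). The 2605 genes called higher reach log2 fold changes above 7, while ALDH1A1, the lowest of the named genes, is at -3.70.

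The transfected gene was examined first. PIK3CA (ENSG00000121879.5, chromosome 3, 179148114 to 179240093, plus strand, hg38) was at 81, 85.9 and 80.9 CPM in the 3 control insulin libraries and at 734, 714 and 715 CPM in the 3 H1047R insulin libraries. The groups were far apart, with a log2 fold change of 3.12 ± 0.09 (adjusted p = 2.67e-27). The counts do not separate plasmid transcripts from those of the endogenous locus. PIK3CA was the only 1 of the 14 tested genes of PI3K subunits that was called. PIK3R1, which encodes the p85α regulatory subunit that holds p110α, was at 31.8, 29.6 and 26.9 CPM in control insulin and 33.2, 28.6 and 33.5 CPM in H1047R insulin, and these ranges overlapped. The other class I catalytic genes, PIK3CB (-0.20 ± 0.053) and PIK3CD (-0.12 ± 0.047), did not pass the test, with adjusted p-values of 0.00224 and 0.0314. Without H1047R insulin replicate 2, 1 gene of this list was called lower.

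**Figure D2:**
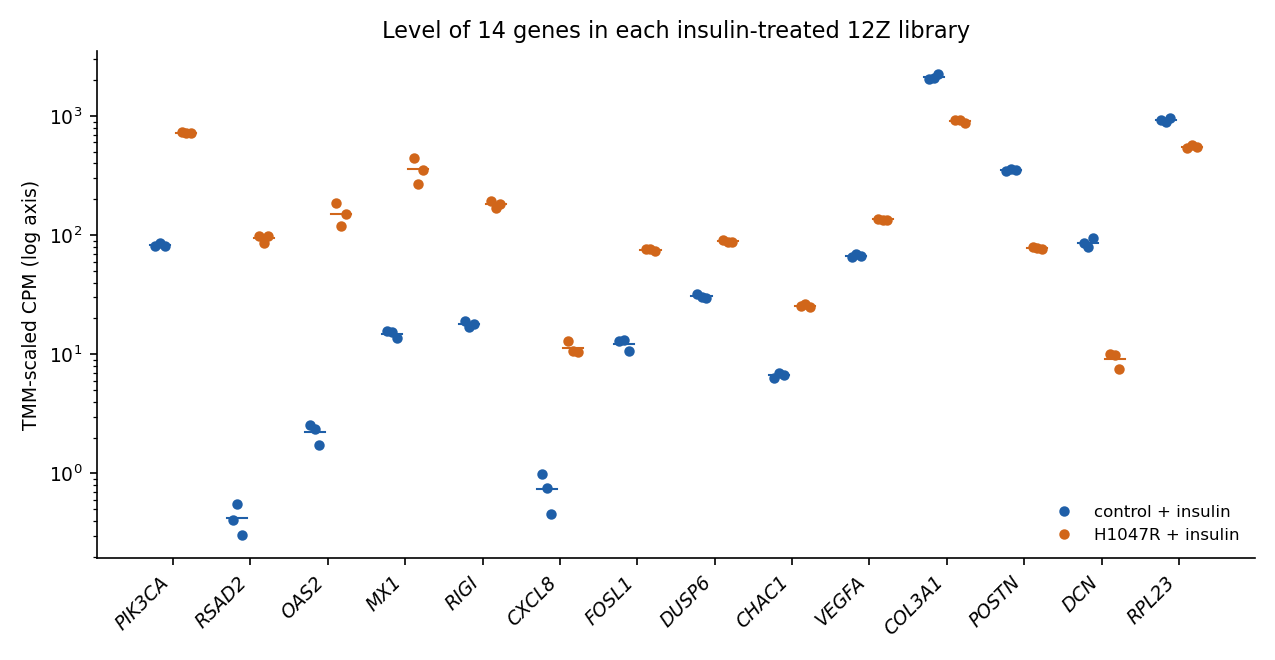
Level of 14 genes (TMM-scaled CPM, log axis) in each of the 6 insulin libraries, with control in blue, H1047R in orange and a short line at each group mean. The groups do not overlap for any of these genes, and RSAD2 shows the widest gap.

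Interferon-stimulated genes made up the largest increases. Of 60 tested genes of this class, 57 rose, 2 fell and 1 was not called, with a median log2 fold change of 1.60. Their summed level was 3159 to 3208 CPM in control insulin and 8427 to 10320 CPM in H1047R insulin, so the groups were well separated, while the spread within H1047R insulin was wider than within control insulin. RSAD2 (ENSG00000134321.12, chromosome 2, 6865557 to 6898239, plus strand) was the gene with the largest change of those averaging at least 1 CPM. It had 11, 16 and 8 counts in control insulin and 3031, 3134 and 3784 counts in H1047R insulin, which is 0.404, 0.55 and 0.303 CPM against 99, 86.2 and 98.1 CPM and a log2 fold change of 7.79 ± 0.28 (adjusted p = 1.46e-24).

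Promoter sequences of this class are shown because a short element, the interferon-stimulated response element, is the textbook feature these genes share. RefSeq promoter windows (GRCh38.p14, 250 bases before to 50 after a start site, plus-strand or minus-strand as the gene runs) were searched on both strands for GAAA, any 2 bases and GAAA again, which reads TTTC, any 2 bases and TTTC on the other strand. The windows of 46 of the 60 genes were in the table. The letters were present in 38 of their 63 windows (60.3%), against 2.97% of the 19119 windows of 13360 tested genes and 3.57% of all 35116 windows. Among genes called higher over 4-fold the share was 18.3% of 175 windows, and 8.22% of 146 once the interferon-stimulated genes were set aside. Among genes called lower it was 2.41% of 3116. The 5 genes of the class with the largest increase and a match are given, from their plus strand, with the matches in capitals.
RSAD2, chr2:6877587-6877686: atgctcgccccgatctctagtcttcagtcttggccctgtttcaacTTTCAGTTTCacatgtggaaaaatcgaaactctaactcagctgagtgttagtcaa
IFI44L, chr1:78620239-78620338: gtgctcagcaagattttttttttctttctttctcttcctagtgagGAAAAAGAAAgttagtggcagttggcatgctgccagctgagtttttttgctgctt
IFI44, chr1:78649726-78649825: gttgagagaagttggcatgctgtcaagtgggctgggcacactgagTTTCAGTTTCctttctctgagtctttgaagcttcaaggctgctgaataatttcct
MX1, chr21:41420524-41420607: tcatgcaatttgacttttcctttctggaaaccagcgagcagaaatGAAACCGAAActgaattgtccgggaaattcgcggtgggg
IFI27, chr14:94110583-94110682: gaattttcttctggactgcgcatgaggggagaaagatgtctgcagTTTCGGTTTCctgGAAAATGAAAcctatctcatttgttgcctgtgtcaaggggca
The match began 145 bases before the start site in RSAD2, 164 in IFI44L, 18 in IFI44 and 108 in IFI27, and 11 bases after it in MX1. IFI27 carried 2 matches in the stretch shown. The 33 genes of the class with a match had a median log2 fold change of 1.89 (0.36 to 7.79) and the 13 without a match 1.32 (0.39 to 4.94), so the ranges overlapped broadly. A match describes the sequence only.

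OAS1, OAS2, OAS3 and OASL belong to the oligoadenylate synthetase family, of which the first 3 members activate RNase L on double-stranded RNA. OAS2 rose from 2.57, 2.37 and 1.74 CPM to 187, 119 and 149.8 CPM (6.08 ± 0.32, adjusted p = 2.30e-19). OASL, a relative without synthetase activity, rose from 5.51, 3.33 and 4.85 CPM to 223, 230.5 and 233 CPM (5.66 ± 0.20). Replicate 1 was highest among the H1047R insulin libraries for OAS2 and replicate 3 for OASL, and neither gene overlapped between groups. The dynamin-like GTPases MX1 and MX2 trap viral particles. MX1 was at 15.7, 15.3 and 13.7 CPM in control insulin and 446, 269 and 355 CPM in H1047R insulin (4.58 ± 0.26). MX2 was at 2.94, 3.06 and 3.07 and 117, 65.7 and 82.5 CPM (4.87 ± 0.25). The ubiquitin-like ISG15 (14.8, 13.8 and 15.1 against 166, 145 and 169.5 CPM, 3.46 ± 0.15) and its ligase HERC5 (5.51, 3.68 and 3.41 against 77.5, 76 and 75.5 CPM, 4.18 ± 0.16) rose together. CMPK2, the neighbour of RSAD2 on chromosome 2, encodes a mitochondrial nucleotide kinase, and it rose by 4.92 on the log2 scale. IFI44L (6.77 ± 0.34), IFI44 (4.89 ± 0.19), IFI27 (4.25 ± 0.37), IFIT3 (3.56 ± 0.13) and BST2 (4.09 ± 0.27), which encodes tetherin, also rose. BST2, IFI27 and IFI44L were low in control insulin, with IFI27 at 4, 6 and 3 counts. The exceptions were small. GBP2 (-0.31 ± 0.065) and IFITM2 (-0.28 ± 0.054) fell, and UBA7, the activating enzyme for ISG15, was not called (0.17 ± 0.069, adjusted p = 0.0434). Without replicate 3 of either group, 0 of the 60 genes were called lower. OAS3, ISG15, IFIT3 and these exceptions were named after their values were seen. IRF9 had no count in any library and was not tested. Reads that fell on several genes are not in the counts. They made up 3.31 to 3.50% of the reads in control insulin and 3.56 to 3.61% in H1047R insulin. Whether reads of IRF9 were among them was not tested.

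Of 21 tested sensors of foreign nucleic acid and their signalling partners, 14 rose and none fell, with a median log2 fold change of 0.72. RIGI, which senses short RNA with a triphosphate end, was at 18.9, 17.1 and 17.9 CPM in control insulin and 193, 170.1 and 183 CPM in H1047R insulin (3.34 ± 0.12, adjusted p = 4.20e-24). IFIH1, which encodes MDA5, the sensor of long double-stranded RNA, went from 13.4, 13.7 and 13.6 to 86.9, 69.3 and 80.7 CPM (2.54 ± 0.12). DHX58, which encodes their regulator LGP2, rose by 1.78 ± 0.10. The groups did not overlap for any of these 3 sensors. The signalling hubs downstream of them were not called, with log2 fold changes of 0.063 ± 0.036 for MAVS and -0.041 ± 0.05 for TBK1, and both genes were chosen after their values were seen.

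Interferon genes themselves were at the edge of detection. Of the 23 tested genes for interferons, their receptors and STAT factors outside the class above, 3 rose (IFNL1, IRF1 and JAK2) and 1 fell (STAT5B). These shares of 13% and 4.3% were below the 16.27% and 17.22% of protein-coding genes. IFNL1, which encodes a type III interferon, had no count in control insulin and 37, 31 and 33 counts in H1047R insulin. Scaled to library totals, this is 27.1-fold above a floor of 3 counts over the control insulin group. IFNB1 had no count in control insulin and 6, 3 and 7 counts in H1047R insulin, 4.29-fold above the same floor, and did not pass the threshold (adjusted p = 0.00412). IFNL1 averages under 1 CPM and IFNB1 was not called, and both were named after their values were seen. The receptor genes IFNAR1 (-0.16 ± 0.04), IFNAR2 (-0.26 ± 0.092) and IFNLR1 (0.24 ± 0.09) were not called and were likewise chosen after their values were seen. IRF1, a factor induced by interferon and NF-κB, rose from 26, 24.9 and 25.8 to 75.5, 77.2 and 76.5 CPM (1.58 ± 0.064). Counting intervals below cover counting error only. Values against the floor leave out the counting error of H1047R insulin, so they are not lower limits.

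Genes of antigen presentation by MHC class I also rose, in 16 of 20 cases and with none lower (median 0.51). HLA-B was at 14.7, 15.1 and 14.5 CPM in control insulin and 42.3, 34.3 and 36.2 CPM in H1047R insulin (1.35 ± 0.085). The peptide transporter gene TAP1 went from 23.9, 24.5 and 25 to 39.8, 37.6 and 43.4 CPM (0.72 ± 0.075). HLA genes are near-identical to each other in parts, so reads placed at several sites are missing from their counts.

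Inflammatory genes that NF-κB controls rose in 24 of 30 tested cases, with none lower and a median of 1.38. CXCL8, a neutrophil attractant, was at 0.991, 0.756 and 0.455 CPM in control insulin and 12.9, 10.6 and 10.6 CPM in H1047R insulin (3.93 ± 0.17, adjusted p = 1.54e-21). CXCL1, of the same family, went from 1.06, 0.825 and 0.796 to 7.28, 5.97 and 5.6 CPM (2.80 ± 0.19). The cytokine gene IL11 rose from 5.25, 4.92 and 4.78 to 26.4, 28.1 and 27.2 CPM (2.45 ± 0.095). Every H1047R insulin library was above every control insulin library for these 3 genes. CCL5, an attractant of T cells, had 6, 2 and 2 counts in control insulin and 98, 70 and 63 counts in H1047R insulin, a ratio of 18.6 (95% exact interval 9.92 to 39.2). CXCL10 had 1 count in control insulin in all and 50 in H1047R insulin, a ratio of 40.2 with a wide interval of 6.89 to 1620. CXCL11 had no count in control insulin and 7, 13 and 23 counts in H1047R insulin, 11.5-fold above the floor of 3 counts used for IFNL1. CXCL10 and CXCL11 respond to interferon as well as to NF-κB, and they were named after their values were seen. TNFAIP3, which encodes the deubiquitinase A20, a brake on the same pathway, rose too (12.7, 14.1 and 12.3 against 74.4, 68.2 and 67.8 CPM, 2.42 ± 0.088), chosen after its values were seen.

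**Figure D3:**
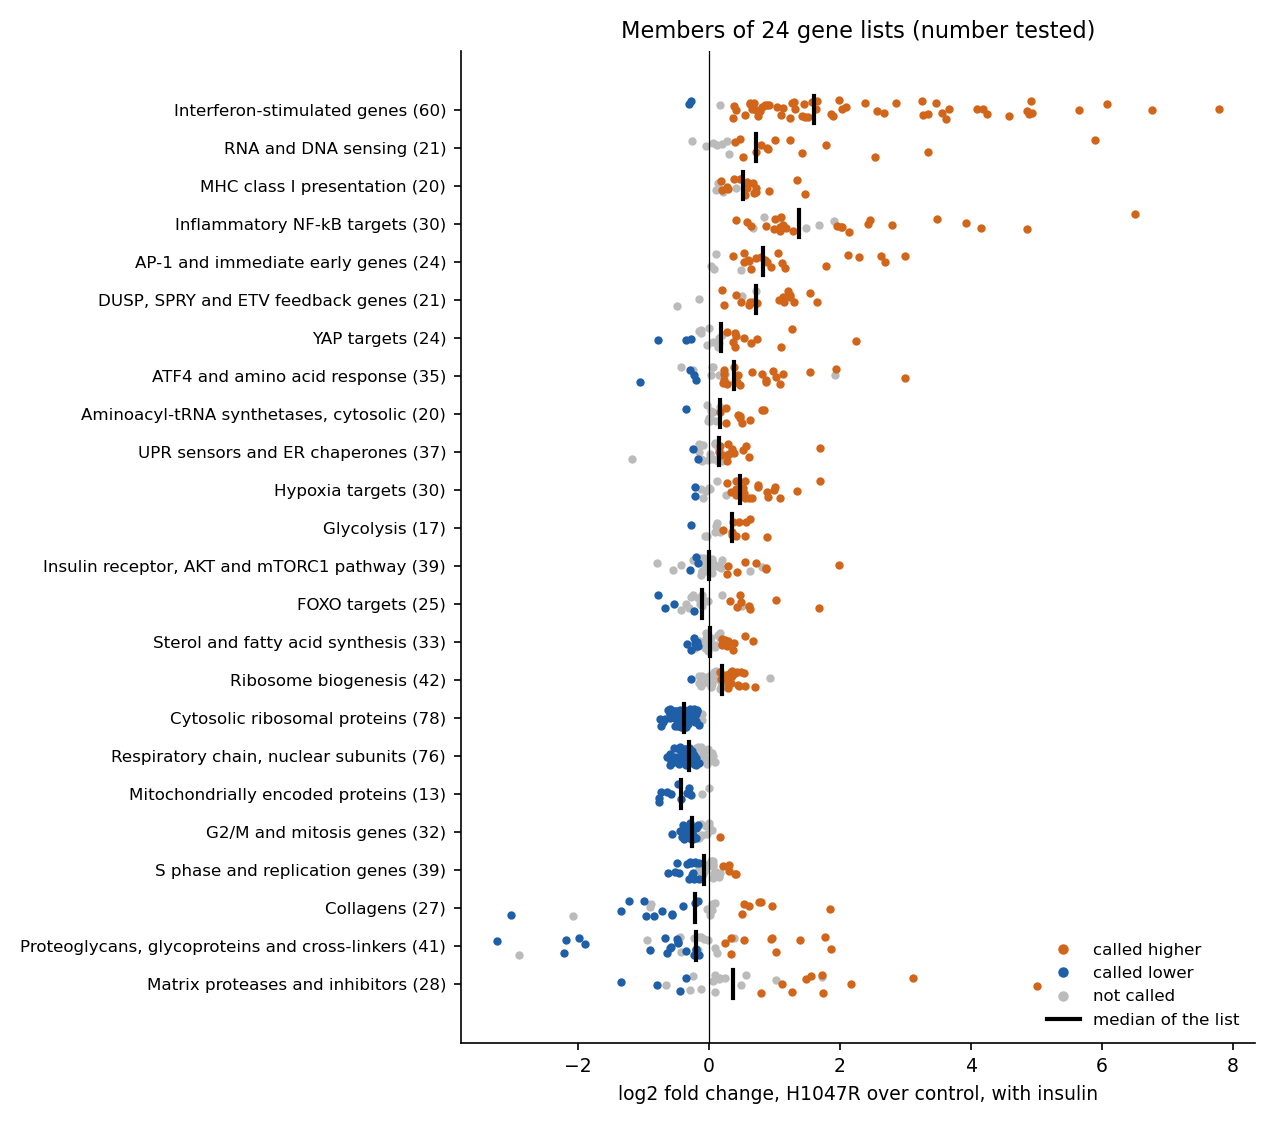
Log2 fold changes, H1047R insulin over control insulin, of the tested members of 24 gene lists, with 1 point per gene, called genes in orange (higher) or blue (lower) and a black bar at the median. Interferon-stimulated genes reach from -0.31 to 7.79 with a median of 1.60, while the 78 ribosomal protein genes all lie below zero with a median of -0.39.

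Immediate early genes and genes induced by the ERK pathway moved the same way. Immediate early genes are transcribed within minutes of growth factor signals and encode AP-1, EGR and KLF factors. Of 24 tested, 20 rose and none fell, with a median of 0.83. ATF3 rose from 5.98, 5.53 and 5.08 to 45.1, 43.8 and 43.5 CPM (2.99 ± 0.12) and FOSL1, an AP-1 subunit, from 12.9, 13.1 and 10.6 to 76.6, 76.6 and 73.9 CPM (2.63 ± 0.08). KLF4 (2.29 ± 0.071) and MAFF (2.13 ± 0.076) followed. In a list of genes induced by ERK signalling, dual-specificity phosphatases, Sprouty proteins and ETV factors among them, 17 of 21 rose and none fell (median 0.72). DUSP6, the phosphatase of ERK, was at 31.9, 30.5 and 29.5 CPM in control insulin and 90.8, 87.6 and 88.3 CPM in H1047R insulin (1.54 ± 0.053, adjusted p = 5.49e-25). DUSP4 rose by 1.30 ± 0.05 and PHLDA1 by 1.65 ± 0.052. The groups were separate in all of these genes. Of 14 EGF family ligands and ERBB receptors, 5 rose (35.7%, against 16.27% of protein-coding genes) and 2 fell (14.3%, against 17.22%). AREG (1.89 ± 0.21), HBEGF (0.94 ± 0.081) and NRG1 (0.84 ± 0.071), all of which encode ligands, were among those that rose, and the receptor gene ERBB3 fell (-0.79 ± 0.067).

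The genes of the insulin and AKT pathway itself changed less. Of 39 tested, 8 rose (20.5%, against 11.4% of all genes and 16.27% of protein-coding genes). Another 3 fell (7.7%, against 12% and 17.22%), and the median was 0.0040. The 3 that fell were no longer called without replicate 1 or 2 of H1047R insulin or replicate 1 of control insulin. GRB10, which encodes an adaptor that mTORC1 phosphorylates and that dampens insulin receptor signalling, was the largest exception, at 34.5, 36.2 and 33.7 CPM in control insulin and 137, 139.6 and 137 CPM in H1047R insulin (1.99 ± 0.074, adjusted p = 4.87e-24). IRS1, the receptor's adaptor, rose from 33, 34.3 and 33.5 to 56.5, 54.1 and 55.9 CPM (0.72 ± 0.058). SGK1, a kinase related to AKT, rose by 0.88 ± 0.043, and SESN2, an inhibitor of mTORC1, by 0.87 ± 0.10. Genes that FOXO factors activate did not move in 1 direction, with 8 of 25 higher (32%), 4 lower (16%) and a median of -0.11. The share lower was near that of protein-coding genes. GADD45A (1.68 ± 0.063) and TXNIP (1.02 ± 0.059) rose and YPEL3 (-0.67 ± 0.072) fell. Of 33 genes of sterol and fatty acid synthesis, 10 rose (30.3%) and 8 fell (24.2%), with a median of 0.020.

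Genes of the amino acid response under ATF4 rose in 23 of 35 cases and fell in 4, with a median of 0.39. CHAC1, which degrades glutathione, was at 6.31, 6.94 and 6.71 CPM in control insulin and 25.6, 26.3 and 24.7 CPM in H1047R insulin (1.94 ± 0.093, adjusted p = 2.18e-20). SLC3A2, the shared heavy chain of amino acid transporters, went from 97.4, 102 and 102 to 294, 283 and 299 CPM (1.54 ± 0.059), and DDIT3, the factor CHOP, from 9.62, 10.8 and 9.86 to 22.6, 22.8 and 20.8 CPM (1.12 ± 0.084). NUPR1, a stress-induced cofactor counted in the same list, fell (-1.05 ± 0.066), as did PHGDH (-0.29 ± 0.039), the first step of serine synthesis, and both were chosen after their values were seen. Without H1047R insulin replicate 3, 2 members of the list were called lower. The element read by ATF4 was searched in the same RefSeq windows as TGATGNAA on both strands, and 12 of 47 windows of this list held it (25.5%), against 2.18% of the windows of tested genes. The windows of the 3 most increased members with a match are given from their plus strand, the match in capitals.
ATF3, chr1:212565171-212565268: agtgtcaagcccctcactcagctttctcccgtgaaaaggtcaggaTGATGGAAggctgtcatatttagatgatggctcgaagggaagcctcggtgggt
CHAC1, chr15:40953221-40953314: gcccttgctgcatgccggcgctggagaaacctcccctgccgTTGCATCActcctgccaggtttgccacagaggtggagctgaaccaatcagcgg
SLC3A2, chr11:62881691-62881748: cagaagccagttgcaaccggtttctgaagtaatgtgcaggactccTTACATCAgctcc
Aminoacyl-tRNA synthetase genes rose in 10 of 20 cases and fell in 1. WARS1, which charges tryptophan tRNA, went from 146, 148 and 150.1 to 261, 258 and 275 CPM (0.84 ± 0.046). The unfolded protein response gave a smaller shift, with 13 of 37 sensors and chaperones higher, 2 lower and a median of 0.16. Without control insulin replicate 3 the number higher was 8, and without any single library of the 6 the number lower was 1. PPP1R15A, the phosphatase subunit that restarts translation after stress, rose from 34, 31.9 and 32.1 to 107, 102 and 108 CPM (1.69 ± 0.053) and XBP1 by 0.62 ± 0.054. Of 25 genes for delivery of proteins to the endoplasmic reticulum, 2 rose and 9 fell, and the number higher was 1 without replicate 1 or 2 of H1047R insulin or replicate 1 or 3 of control insulin. SEC61A2, a channel subunit, rose (0.73 ± 0.079), while TRAM1 (-0.44 ± 0.044), SEC62 (-0.42 ± 0.039) and SRP14 (-0.41 ± 0.047) fell.

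Hypoxia targets rose in 21 of 30 cases and fell in 2, with a median of 0.47. The number lower was 0 without H1047R insulin replicate 1 or control insulin replicate 2. VEGFA, the vascular growth factor, was at 65.4, 70.1 and 67 CPM in control insulin and 137, 135 and 135 CPM in H1047R insulin (1.01 ± 0.048, adjusted p = 1.93e-20). PFKFB4, which makes an activator of glycolysis, went from 32.9, 37.4 and 35.5 to 89.5, 87 and 92.9 CPM (1.35 ± 0.067). STC2 (1.09 ± 0.053) and ANGPTL4 (1.69 ± 0.17), both secreted proteins, rose as well. Of 17 glycolysis genes, 10 rose and 1 fell (median 0.35). HK2, the hexokinase that traps glucose in the cell, rose from 93.3, 96.4 and 101 to 182, 175 and 182 CPM (0.89 ± 0.055).

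Most genes for ribosomal proteins and for the respiratory chain fell. Of 78 cytosolic ribosomal protein genes, 70 fell and none rose, with a median of -0.39. Their summed level was 38550 to 41990 CPM in control insulin and 30410 to 30660 CPM in H1047R insulin, and the groups did not overlap. RPL23 was at 918, 893 and 962 CPM in control insulin and 537, 568 and 545 CPM in H1047R insulin (-0.75 ± 0.047, adjusted p = 7.57e-17), the largest decrease of the list. Ribosomal protein genes have many processed pseudogenes, so reads placed at several sites are missing from their counts, and the share of such reads was lower in H1047R insulin as given above. The elongation factor gene EEF1A1 (-0.46 ± 0.035) and the initiation factor gene EIF4B (-0.65 ± 0.038) also fell. Of 43 translation factors, 12 fell (27.9%, against 17.22% of protein-coding genes) and 7 rose (16.3%, against 16.27%). The number that rose was 4 without H1047R insulin replicate 1 and 3 without control insulin replicate 2. Ribosome biogenesis genes went the other way from ribosomal protein genes, with 22 of 42 higher and 1 lower (median 0.20). NOP14, a processing factor of the small subunit, rose from 50.3, 50.8 and 52 to 85.3, 81.5 and 82.3 CPM (0.70 ± 0.051), and MYC, which controls many of these genes, from 30.8, 31.8 and 32 to 47.4, 45.2 and 44.4 CPM (0.53 ± 0.051).

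Of 76 nuclear genes for respiratory chain subunits, 50 fell and none rose (median -0.30). Summed levels were 7632 to 8072 CPM in control insulin and 6331 to 6394 CPM in H1047R insulin. UQCRB, a subunit of complex III, was at 287, 269.9 and 294 CPM in control insulin and 198, 189 and 176 CPM in H1047R insulin (-0.60 ± 0.045). COX7C of complex IV fell by a similar amount (-0.59 ± 0.044). Of 13 proteins encoded in mitochondrial DNA, the transcripts of 11 fell and none rose (median -0.42). MT-CYB, the cytochrome b of complex III, was at 1559, 1687 and 1644 CPM in control insulin and 1033, 1068 and 1024 CPM in H1047R insulin (-0.65 ± 0.035), while MT-CO1 (-0.11 ± 0.031) and MT-CO2 (-0.0078 ± 0.037), chosen after their values were seen, were not called. Mitotic genes fell in 21 of 32 cases and rose in 1 (median -0.26), among them CDK1, the kinase that opens mitosis (345, 368 and 360.0 against 245, 245 and 234 CPM, -0.57 ± 0.04). The 1 mitotic gene called higher, BUB1 (0.17 ± 0.038), was named after its value was seen and was not called once any of the 6 libraries was left out. Of 39 genes of S phase, 15 fell (38.5%, against 17.22% of protein-coding genes) and 5 rose (12.8%, against 16.27%). The number that rose was 3 without replicate 3 of either group or control insulin replicate 2.

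**Figure D4:**
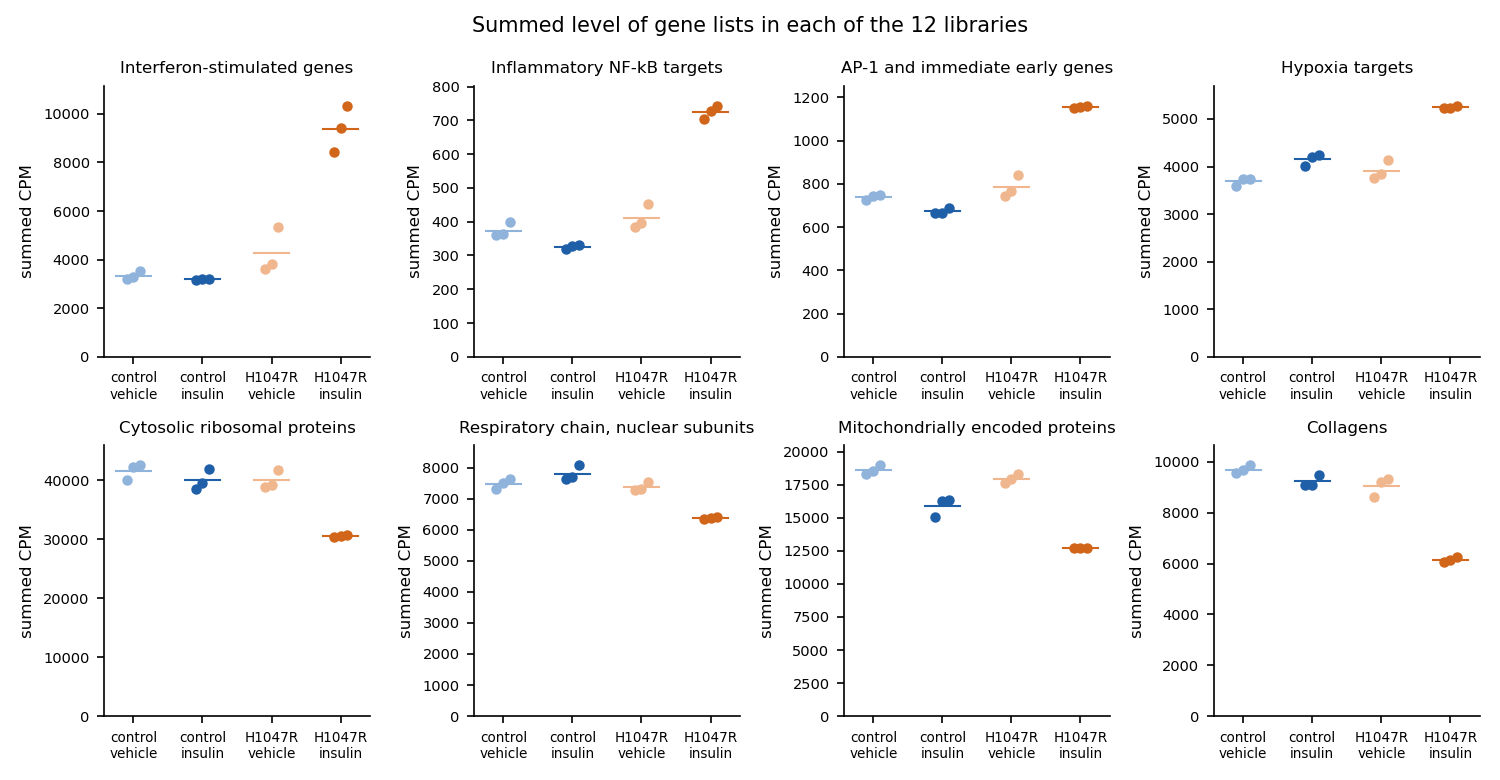
Summed TMM-scaled CPM of 8 gene lists in each of the 12 libraries, 3 per group, with a line at the group mean and a vertical axis that starts at 0. H1047R insulin stands apart from the other 3 groups in every panel, above them for interferon-stimulated genes (8427 to 10320 CPM) and below them for ribosomal proteins (30410 to 30660 CPM).

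Genes of the extracellular matrix changed in both directions. Collagen genes fell in 12 of 27 cases and rose in 7, and their summed level went from 9100 to 9477 CPM in control insulin to 6068 to 6251 CPM in H1047R insulin. COL3A1, a fibrillar collagen, was at 2028, 2076 and 2263 CPM in control insulin and 927, 923 and 878 CPM in H1047R insulin (-1.22 ± 0.039, adjusted p = 5.22e-26). COL1A2 (-0.96 ± 0.038) and COL8A2 (-1.35 ± 0.077) fell too. COL13A1, a transmembrane collagen, rose instead, from 11.2, 11.7 and 10.8 to 42, 39.4 and 40.5 CPM (1.85 ± 0.085). Of 41 proteoglycans, glycoproteins and cross-linkers, 18 fell and 10 rose. DCN, which encodes the small proteoglycan decorin, was at 86, 79.1 and 94.2 CPM in control insulin and 10.1, 9.9 and 7.54 CPM in H1047R insulin (-3.24 ± 0.096, adjusted p = 5.04e-27). Its relatives LUM (353, 364 and 409 against 86, 86.8 and 69.1 CPM, -2.22 ± 0.071) and BGN (7.56, 6.88 and 6.33 against 2.32, 1.87 and 1.45 CPM, -1.90 ± 0.13) fell too. POSTN, a matricellular protein, fell from 349, 359.8 and 356 to 79, 77.5 and 76.4 CPM (-2.19 ± 0.053). For each of these matrix genes the lowest library of the higher group stayed above the highest library of the lower group, as for nearly all called genes. Matrix proteases and their inhibitors rose in 10 of 28 cases (35.7%, against 16.27% of protein-coding genes) and fell in 4 (14.3%, against 17.22%). PLAU, which encodes urokinase, was at 28.9, 31.1 and 25.5 CPM in control insulin and 133, 123 and 127 CPM in H1047R insulin (2.16 ± 0.072). MMP1, a collagenase, had 2, 9 and 24 counts in control insulin and 119, 137 and 135 counts in H1047R insulin (3.12 ± 0.28), so its control libraries varied widely below the other group. NT5E, the ecto-enzyme CD73 that serves as a YAP target and as a stromal marker, rose from 71.1, 72.9 and 65.3 to 349, 317 and 329.8 CPM (2.25 ± 0.076).

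The other largest changes lay outside these pathways. ACTN2, a muscle actinin, had 8 counts over the 3 control insulin libraries and 792 over the H1047R insulin libraries, a ratio of 79.6 (95% exact interval 40.2 to 185), and was thus nearly silent in control cells. Among the genes that fell most, ALDH1A1, a retinaldehyde dehydrogenase, was at 4.37, 3.54 and 5.19 CPM in control insulin and 0.229, 0.358 and 0.389 CPM in H1047R insulin (-3.70 ± 0.26). WNT2, a Wnt ligand, fell from 4.41, 5.16 and 5.46 to 1.01, 0.605 and 0.7 CPM (-2.71 ± 0.17), and CD24, a surface glycoprotein, from 203, 202 and 205 to 50.2, 54.3 and 54.9 CPM (-1.94 ± 0.047). Of 11 tested genes of a list of IGF2-related genes and IGF binding proteins, 6 were called higher and none lower. They included the binding protein genes IGFBP6 (1.69 ± 0.08) and IGFBP3 (1.61 ± 0.065) and also IGF2BP1 (0.43 ± 0.077), which encodes an mRNA-binding protein. GAS1, SELENOP and MC4R fell too, with log2 fold changes of -2.03, -2.29 and -2.22. SELENOP did not pass the threshold when reads of both strands were counted (-1.93).

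The same comparison in vehicle, in 6 other libraries, gave far fewer calls. There, 36 of the 22756 genes (0.158%) were called, 32 higher and 4 lower. All 36 were called in the same direction with insulin. They included RSAD2, OAS2, OASL, MX1, HERC5, RIGI, ATF3 and CHAC1 among those higher, and POSTN and GAS1 among those lower. The difference between the effect of H1047R in insulin and in vehicle was tested directly, and 2064 genes (9.07%) passed. Of the 2605 genes called higher with insulin, 1039 (39.9%) differed in this test, and of the 2735 called lower, 1018 (37.2%) did. In each of these the difference, insulin minus vehicle, had the same sign as the effect with insulin. The vehicle count rested on single libraries, ranging from 14 without control vehicle replicate 1 to 100 without H1047R vehicle replicate 3. The H1047R effect on RSAD2 was 2.98 ± 0.41 in vehicle and 7.79 ± 0.28 with insulin, a difference of 4.81 ± 0.82 (adjusted p = 1.86e-05). For DCN the effect in vehicle was -0.38 ± 0.078 and did not pass the test (adjusted p = 0.00574), and the difference was -2.86 ± 0.12 (adjusted p = 1.32e-20).

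The level of the transfected gene differed between these settings as well. PIK3CA was at 89, 88.2 and 88.7 CPM in control vehicle and 312, 180.1 and 215 CPM in H1047R vehicle, a log2 fold change of 1.41 ± 0.089, so that its difference between insulin and vehicle was 1.72 ± 0.12 (adjusted p = 3.81e-14). The larger effect of H1047R with insulin therefore came with a higher PIK3CA level, and the part of that level in the difference was not tested. H1047R insulin also had deeper libraries and a smaller share of reads placed at several sites than the other groups. The part of these library measures in the difference was not tested either. Within H1047R vehicle, replicate 1 had the highest PIK3CA. It also had the highest RSAD2 (12.6, 2.22 and 3.4 CPM), OAS2 (40.9, 6.82 and 13.3 CPM), ISG15 (61.7, 27.3 and 27.7 CPM) and ATF3 (15.2, 7.52 and 8.66 CPM), all higher than in replicates 2 and 3. Without this library the vehicle comparison called 18 genes, and the test of the difference 2564. The vehicle counts were 16 and 15 without control vehicle replicate 2 and 3, and 68 without H1047R vehicle replicate 2.

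**Figure D5:**
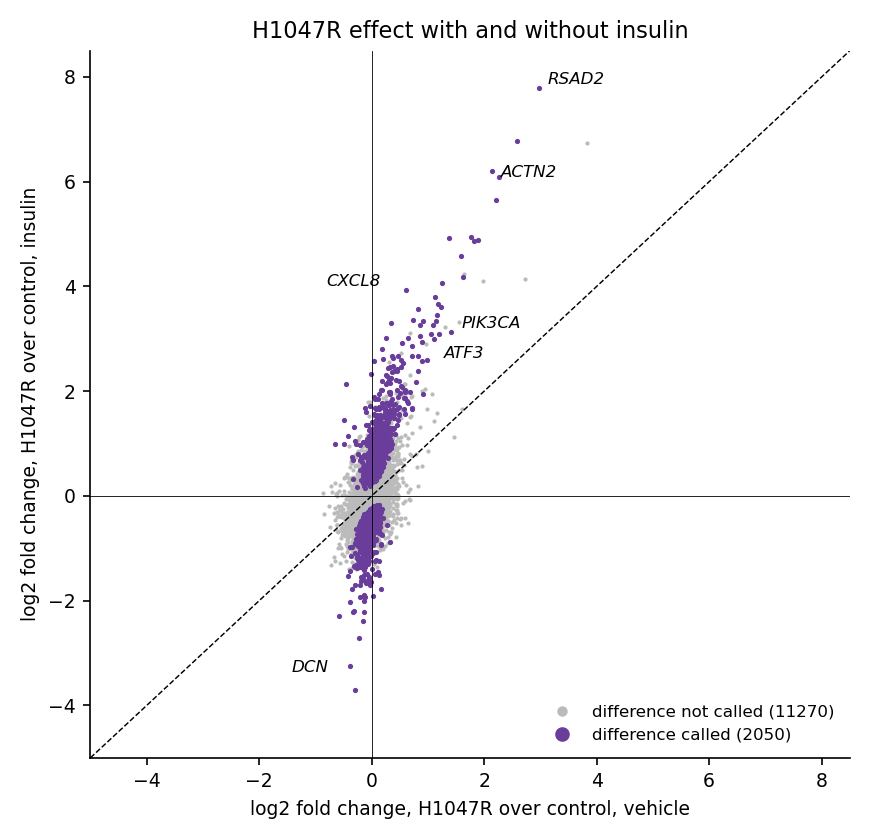
Log2 fold change of H1047R over control in vehicle (horizontal axis) and in insulin (vertical axis) for the 13320 tested genes averaging at least 1 CPM in the insulin libraries, with the 2050 genes whose difference was called in purple and the dashed line marking equal effects. Purple genes lie above the line where the insulin effect is positive and below it where it is negative, with RSAD2 at 2.98 and 7.79.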

How the data were processed

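RNA-seq libraries (500 ng of total RNA, KAPA mRNA HyperPrep kit, 12 libraries in all) were analysed from the deposited count tables. Per the methods and the submitters' processing notes, adapters were removed (cutadapt, Trim Galore) and pairs aligned to hg38 by STAR, whose raw gene counts the authors deposited without normalization. The sources used here give neither tool versions nor a human annotation release. Read pairs placed at several sites or falling on several genes are not counted.

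Reverse-strand counts were used. The test was edgeR's quasi-likelihood test (version 4.0.16 in R 4.3.3, functions glmQLFit and glmQLFTest), with TMM factors and a mean of at least 1 count per library required. The 4 groups were modelled jointly over the 12 libraries, which left 8 residual degrees of freedom, and calls were made at a Benjamini-Hochberg FDR below 0.001. Alternatives were DESeq2 1.42.0, other scalings, filters and FDR, both strands, thinned counts, the replicate block, separate fits of the insulin or vehicle libraries and leaving out each library. An SE is the size of the log2 fold change over the square root of its F statistic. The fit was tested on counts simulated from these libraries. Replicate numbers were not used to pair libraries. Of 60617 identifiers, 60357 matched GENCODE v44. RefSeq promoter windows matched 13360 of 19044 tested genes with a unique symbol.

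Named genes were PIK3CA and RSAD2, the 12 largest changes in each direction that averaged at least 1 CPM without overlap of the groups, up to 4 called members per list (up to 2 of the most abundant where none was called), all PI3K subunits, and up to 10 genes called in both comparisons and 10 with the largest difference. Other genes are marked in the text. Some genes of these lists are not reported here. The members of the comparison and the gene lists were chosen with earlier results of these data known. Library measures were compared by exact permutation.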

Additional observations from a re-analysis of the deposited data

Results flagged for a closer look

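The effect of H1047R was compared between insulin and vehicle by a test of the difference itself, in the same edgeR quasi-likelihood fit at an FDR below 0.001, and it differed for 2064 genes. The values below are differences of the H1047R log2 fold change, insulin minus vehicle, for the genes named in the text that passed this test. All lie on the side of a larger effect with insulin. Most were named for the size of their effect with insulin or of this difference, which favours that side. PIK3CA itself differed by 1.72, and the part of its level in the other differences was not tested. Nor was the part of read depth and of reads placed at several sites, in which H1047R insulin stood apart from the other groups. H1047R vehicle replicate 1 was above replicates 2 and 3 for PIK3CA, RSAD2, OAS2, ISG15 and ATF3, as given in the report.

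Among antiviral genes the difference was 4.81 for RSAD2, 4.20 for IFI44L, 3.82 for OAS2, 3.54 for CMPK2, 3.45 for OASL, 3.17 for OAS1, 3.04 for MX2, 3.0 for MX1 and 3.0 for IFI44. Smaller differences were found in the rest of the class, with 2.73 for IFIT3, 2.55 for HERC5, 2.30 for ISG15 and 1.86 for OAS3. The RNA sensors gave 2.43 for RIGI, 1.98 for IFIH1 and 1.51 for DHX58, and interferon response and antigen presentation genes gave 1.35 for IRF1, 1.09 for HLA-B and 0.52 for TAP1. Inflammatory genes differed by as much, with 3.32 for CXCL8, 2.61 for CXCL1, 2.16 for IL11 and 1.98 for TNFAIP3.

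Immediate early and ERK-induced genes had differences of 2.25 for FOSL1, 2.02 for KLF4, 1.89 for ATF3, 1.88 for MAFF, 1.59 for PHLDA1, 1.47 for DUSP6 and 1.20 for DUSP4. In the EGF family they were 1.85 for AREG, 0.71 for HBEGF, 0.65 for NRG1 and -0.69 for ERBB3. In the insulin pathway and among FOXO targets they were 1.66 for GRB10, 0.80 for SESN2, 0.76 for SGK1, 0.68 for IRS1, 1.53 for GADD45A, 0.79 for TXNIP and -0.50 for YPEL3.

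Stress genes differed by 1.49 for PPP1R15A, 1.05 for SLC3A2, 1.02 for CHAC1, 0.86 for DDIT3, 0.59 for WARS1 and 0.42 for XBP1, and in the other direction by -0.87 for NUPR1, -0.32 for PHGDH and -0.28 for SEC62. Hypoxia and glycolysis genes differed by 1.55 for ANGPTL4, 0.90 for PFKFB4, 0.77 for STC2, 0.76 for VEGFA and 0.56 for HK2. Growth and respiration genes differed by less, with 0.53 for NOP14, 0.41 for MYC, -0.60 for RPL23, -0.52 for EIF4B and -0.40 for EEF1A1 in translation, -0.55 for MT-CYB, -0.51 for UQCRB and -0.49 for COX7C in the respiratory chain and -0.35 for CDK1 in the cell cycle.

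Matrix genes that fell with insulin had differences of -2.86 for DCN, -1.89 for LUM, -1.87 for POSTN, -1.76 for BGN, -1.12 for COL8A2, -1.05 for COL3A1 and -0.87 for COL1A2. Those that rose had 1.90 for NT5E, 1.84 for PLAU and 1.74 for COL13A1. Further genes with a large difference were ACTN2 and ALDH1A1, with 4.07 for ACTN2 and -3.40 for ALDH1A1, followed by -2.48 for WNT2, -2.08 for MC4R, -1.80 for CD24, -1.71 for SELENOP, -1.66 for GAS1, 1.36 for IGFBP3 and 1.20 for IGFBP6. Of the genes described under other observations, those that rose differed by 2.81 for PLCG2, 2.67 for TNFSF15, 2.10 for IL7R, 2.05 for ITGA2, 1.83 for NPAS2, 1.46 for PDCD1LG2, 1.30 for NR1D1, 0.86 for BMAL1 and 0.69 for CD274, and those that fell by -1.43 for WNT2B, -1.12 for NOTCH3, -1.07 for CDH6, -0.92 for CDH3, -0.65 for PER3 and -0.49 for HOXA10.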

How the results depend on the processing

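The number of genes called for H1047R in insulin was 5340 and ranged from 4857 to 6007 over the scalings, filters, DESeq2, counts from both strands, thinned counts and the fit of the insulin libraries only, with 48.8% higher in the reported fit and 56.5% with library totals only. It was 4423 to 4768 with 1 library left out (2182 to 2319 higher, 2222 to 2449 lower), and 8774 at an FDR below 0.05 (4217 higher, 4557 lower). Same-numbered insulin libraries did not deviate together (r = 0.058, 0.018 and -0.01 over 13302 genes), so the numbers served as names, and with the replicate block 5336 genes were called in insulin and 53 in vehicle, 49 of them higher.

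The vehicle count of 36 was 6 with a filter of 1 CPM in 3 libraries (6 higher, 0 lower), 22 with DESeq2 (16 higher) and 152 without a filter (99 higher, 53 lower). With 1 vehicle library left out it was 14 to 100 (11 to 63 higher, 0 to 39 lower). The cause was not tested. The number of genes whose effect differed was 1562 to 2564 over its alternatives.

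Of 137 named genes, 2022 of 2045 values under alternatives kept their call, and 0 values called in either fit turned direction. Turns of direction among values called in neither fit were not counted. Calls changed for GBP2, IFITM2, MT-CO1, SELENOP, BUB1 and PAX8. Of the list counts of at least 10, the one that moved by over 1.5 times outside the looser FDR was that of unfolded protein response genes called higher, 13 in the report, 20 with DESeq2, 21 with the insulin libraries only and 8 without control insulin replicate 3. Scaling moved the median of all genes from -0.022 to at most 0.014. Genes with few counts in control insulin, such as CXCL10 and IFNB1, are limited by depth.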

Other observations

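Genes outside the lists were examined as single genes, and those named here were chosen after their values were seen, except PLCG2. PLCG2, a phospholipase best known from B cells, rose from 1.1, 1.1 and 0.986 CPM in control insulin to 17.9, 18.9 and 16.8 CPM in H1047R insulin (4.06 ± 0.14). The TNF family ligand gene TNFSF15 was at 0.624, 0.653 and 0.379 and 8.2, 7.43 and 7.7 CPM (3.79 ± 0.20). IL7R, a cytokine receptor subunit, was at 28.6, 28.1 and 30 and 164, 159 and 160.4 CPM (2.48 ± 0.07). ITGA2, the collagen-binding integrin α2, was at 46.2, 44.4 and 39 and 219.7, 208 and 213 CPM (2.30 ± 0.058). PDCD1LG2 and CD274, which encode both ligands of PD-1, rose by 1.81 ± 0.12 and 0.86 ± 0.10. None of these genes overlapped between the groups.

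WNT2B, a Wnt ligand like WNT2, was at 3.16, 2.92 and 3.6 CPM in control insulin and 1.34, 1.1 and 0.726 CPM in H1047R insulin (-1.63 ± 0.20). NOTCH3, a Notch receptor, fell from 9.25, 9.62 and 9.32 to 4.08, 4.65 and 4.64 CPM (-1.07 ± 0.10). The cadherin genes CDH3 (-1.18 ± 0.088) and CDH6 (-1.16 ± 0.087) fell as well. HOXA10, a homeobox gene of the uterus, fell from 37.3, 41.9 and 42.7 to 26.6, 28.5 and 28.5 CPM (-0.54 ± 0.066), whereas HOXA11 (-0.22 ± 0.067, adjusted p = 0.00748) did not pass the threshold.

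Of 7 clock genes looked at, 3 rose, 2 fell and 2 were not called. NPAS2 (5.18, 5.71 and 4.78 against 21.5, 19 and 20.5 CPM, 1.96 ± 0.098), its partner BMAL1 (18.1, 17.6 and 15.2 against 31.6, 32.2 and 32.6 CPM, 0.92 ± 0.072) and the repressor gene NR1D1 (12.7, 11.4 and 11.7 against 46, 42.2 and 42.6 CPM, 1.87 ± 0.072) rose. CLOCK, the paralog of NPAS2, fell (-0.31 ± 0.048), as did PER3 (-0.71 ± 0.056). CRY1 (-0.014 ± 0.06, adjusted p = 0.891) and CRY2 (0.093 ± 0.073, adjusted p = 0.354) were not called.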
